A study of Homo sapiens with 6 samples.

Results

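The ADAM and ADAMTS sheddases and their inhibitor RECK were followed in AsPC-1, a long-used line of human pancreatic cancer cells, with and without added MMP28. The genes were picked by name: ADAM8, ADAM9, ADAM10, ADAM15, ADAM17, ADAM19, ADAM28, ADAMTS1, ADAMTS9 and RECK, which are 10 of the 58735 genes in the count table. RNA of 6 libraries was sequenced. In the Vector group (n = 3) wild-type AsPC-1 cells carried an empty lentivirus, and in the OE-MMP28 group (n = 3) the same line carried a lentivirus with the MMP28 cDNA. According to the study's methods, the virus also encoded GFP and puromycin resistance, and infected cells were selected with puromycin, so that each group is a selected cell pool and both groups went through infection and selection. The study's methods mention independent repeats of cell experiments in general and triplicate samples for sequencing, without tying these libraries to separate cultures, and p-values therefore measure the spread between these samples, which may be technical.

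ADAMs are membrane-anchored zinc metalloproteinases that cut the extracellular part off growth factor precursors, cytokines, receptors and adhesion molecules, a process called ectodomain shedding. ADAMTS enzymes are their secreted relatives, carry thrombospondin repeats and cut proteoglycans and other matrix proteins. RECK is a membrane-anchored protein that restrains several metalloproteinases and takes part in Wnt7 signalling. In pancreatic cancer this family is known for releasing ligands of the EGF receptor and for invasion, with ADAM8 and ADAM9 the most often described members.

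The catalytic centre that defines an active sheddase is a short run with 3 histidines that hold the zinc ion. It was looked for in the coding sequence of all 45 ADAM, ADAMTS and ADAMTSL genes (GENCODE 29), as codons for histidine, glutamate, any residue, glycine, histidine, 5 residues of any kind, histidine and aspartate. Of these genes 31 held it, among them all 9 proteases of the group, and the coding sequence of RECK, an inhibitor, did not hold it. The coding strand is shown 5′ to 3′ for 7 of the members and for the 3 other family proteases that passed the test below, with the zinc-binding histidine codons in capitals, so that the catalytic centres can be compared. The runs of ADAM9 and ADAM28 are neither printed nor compared here.
ADAM15: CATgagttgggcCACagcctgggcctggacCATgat
ADAM8: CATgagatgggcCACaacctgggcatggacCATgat
ADAM19: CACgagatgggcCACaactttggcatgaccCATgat
ADAM10: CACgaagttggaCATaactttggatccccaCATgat
ADAM17: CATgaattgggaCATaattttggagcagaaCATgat
ADAMTS1: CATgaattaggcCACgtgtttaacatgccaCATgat
ADAMTS9: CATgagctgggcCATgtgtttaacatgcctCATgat
ADAMTS14: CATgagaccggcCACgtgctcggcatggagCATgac
ADAMTS17: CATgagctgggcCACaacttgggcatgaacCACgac
ADAMTS7: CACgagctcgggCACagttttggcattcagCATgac
The ADAM15 run lies on the plus strand at chr1:155056995-155057030 (GRCh38) in exon 11 of 23, and that of ADAM17 on the minus strand at chr2:9510075-9510110 in exon 11 of 19. Of the 36 bases, ADAM15 shared 33 with ADAM8 (91.7%) and 20 with ADAM10 (55.6%). ADAM10 and ADAM17 shared 28 (77.8%), and ADAMTS1 and ADAMTS9 shared 31 (86.1%). The likeness did not follow the family names throughout, since ADAMTS17 shared 31 bases (86.1%) with ADAM8 and 22 (61.1%) with ADAMTS1.

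The 6 libraries held between 13633249 and 16691458 counts, and every OE-MMP28 total was above every Vector total, so scaled counts were compared throughout. MMP28 itself had 226, 352 and 355 counts in the Vector libraries and 591, 628 and 725 in the OE-MMP28 libraries, and it was 1.87-fold higher in the latter (log2 fold change 0.90 ± 0.19 SE, edgeR adjusted p = 0.00226). All 8 pancreatic epithelial markers were expressed, with a summed FPKM (fragments relative to gene length and library size) of 2688 to 3672 in Vector and 3636 to 4447 in OE-MMP28 libraries. They did not move together. At an edgeR adjusted p under 0.05, MUC1 (log2 fold change 2.16) and KRT19 (0.71) were higher and CDH1 (-0.59) and CLDN4 (-0.61) lower. That is 50% of the 8, beside 23.4% of all genes tested. Of 6 fibroblast markers, LUM alone stood out, at 33.8 to 56.9 FPKM, while COL1A1 had at most 11 counts. Macrophage markers summed to at most 1.10 FPKM with PTPRC at no more than 1 count, and endothelial markers to at most 0.293 FPKM, where PECAM1 had 0, 4 and 4 against 13, 21 and 30 counts and KDR and CDH5 had at most 1. PECAM1 was called higher (log2 fold change 2.79, edgeR adjusted p = 0.00361), which is 50% of the 2 endothelial markers tested, beside 23.4% of all genes tested. VWF, the other one tested, had 7 to 19 counts and a log2 fold change of -0.27 (edgeR adjusted p = 0.735). The part of these markers in the results below was not tested. In bulk RNA, fewer cells of a type and less RNA per cell cannot be told apart.

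Across the 10 genes, the OE-MMP28 cells differed from the Vector cells in 2 members. ADAM15 was higher (1.41-fold) and ADAM28 was lower (11.8-fold), while ADAM8, ADAM9, ADAM10, ADAM17 and ADAM19 did not pass the test. Of the 10 genes 7 had enough counts to be tested with edgeR (quasi-likelihood test, Benjamini-Hochberg adjustment over all 15319 genes tested), and the other 3 had at most 3 counts in any library. An adjusted p under 0.05 was reached by 23.4% of all genes tested (11.7% higher and 11.6% lower), so that 2 of 7 is close to the background. The median log2 fold change of the 7 was 0.03, beside 0.01 over all genes tested. The FPKM values of the groups did not overlap in 2 of the 7, against 38.1% of all genes tested. At the threshold the study states, an unadjusted p under 0.05 with an absolute log2 fold change over 1, ADAM28 alone passed, and 8.5% of all genes tested did. The p-values here are those of edgeR. The study names limma and reported fewer genes at that threshold than the 1302 found here.

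**Figure D1:**
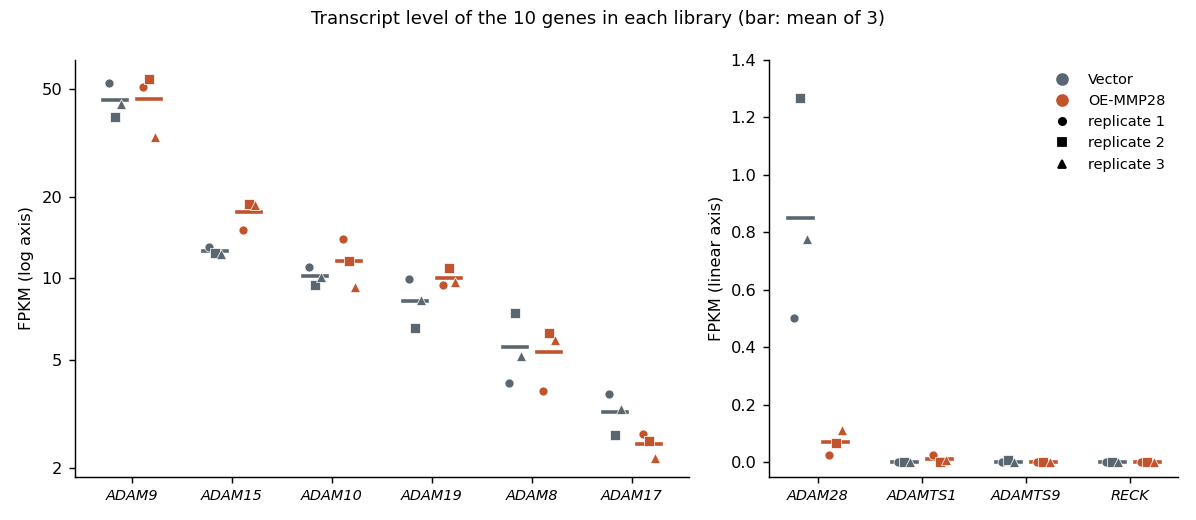
FPKM of each of the 10 genes in every library, on a log axis for 6 ADAM genes and on a linear axis for the 4 low genes. Grey marks are Vector and orange marks OE-MMP28 libraries, the symbol gives the replicate number and the short line the mean of 3, and the groups stand apart for ADAM15 (12.3 to 13.0 against 15.1 to 18.8) and ADAM28 (0.504 to 1.27 against 0.0270 to 0.114).

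ADAM9, which cuts EGF receptor ligands and other membrane proteins, was the most abundant member per gene length. Its level was 52.7, 39.4 and 43.8 FPKM in Vector and 50.5, 54.4 and 33.1 FPKM in OE-MMP28 libraries. The ranges overlapped throughout, and the lowest of all 6 values was OE-MMP28 replicate 3. The means were 45.3 ± 6.76 and 46.0 ± 11.4 FPKM (SD, n = 3), or a log2 fold change of 0.03 (95% interval -0.33 to 0.40, edgeR adjusted p = 0.919). ADAM9 alone accounted for 41.9% to 55.4% of the summed FPKM of the 10 genes in a library.

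ADAM15, an ADAM whose disintegrin domain binds integrins, was second in order. The gene (ENSG00000143537) lies at chr1:155050566-155062775 on the plus strand. Its level was 13.0, 12.4 and 12.3 FPKM in Vector and 15.1, 18.8 and 18.6 FPKM in OE-MMP28 libraries. Every OE-MMP28 library was above every Vector library, and OE-MMP28 replicate 1 was the closest to the control range. The mean rose from 12.6 ± 0.402 to 17.5 ± 2.10 FPKM (SD, n = 3), or a log2 fold change of 0.49 ± 0.15 SE (95% interval 0.18 to 0.80, edgeR adjusted p = 0.0224). A larger absolute log2 fold change was found for 32.9% of all genes tested. The call depended on single libraries: the adjusted p was 0.144 without OE-MMP28 replicate 2, 0.0692 without OE-MMP28 replicate 3 and 0.102 without Vector replicate 3. It also ended with limma on log2(FPKM + 1), where the log2 fold change was 0.44 and the adjusted p was 0.0536. DCST1 runs in the same direction and shares 4.65% of the exon bases of ADAM15, and with 22 to 65 counts against 1105 to 2059 its own log2 fold change was 0.41 (adjusted p = 0.424).

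ADAM10 is the main sheddase of Notch receptors and of E-cadherin. It had 11.02, 9.47 and 10.1 FPKM in Vector and 13.99, 11.5 and 9.30 FPKM in OE-MMP28 libraries. OE-MMP28 replicates 1 and 2 were above all Vector libraries, and replicate 3 was below them. The means were 10.2 ± 0.778 and 11.6 ± 2.35 FPKM (SD, n = 3), and the log2 fold change was 0.20 (95% interval -0.13 to 0.52, edgeR adjusted p = 0.396).

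ADAM17, also called TACE, releases TNF and most ligands of the EGF receptor. Among the runs compared, which leave out ADAM9 and ADAM28, its catalytic run is the one nearest to that of ADAM10. It had 3.75, 2.65 and 3.30 FPKM in Vector and 2.66, 2.52 and 2.18 FPKM in OE-MMP28 libraries. The groups overlapped only through Vector replicate 2, which lay just under OE-MMP28 replicate 1. The means were 3.24 ± 0.555 and 2.46 ± 0.246 FPKM (SD, n = 3), or a log2 fold change of -0.39 (95% interval -0.75 to -0.03) that did not pass after adjustment (edgeR adjusted p = 0.107). Without Vector replicate 2 the log2 fold change was -0.51 and the adjusted p was 0.0453. IAH1 covers 12.3% of the exon bases of ADAM17 on the opposite strand, and its log2 fold change was -0.32 (adjusted p = 0.158). The strand setting of the counting was not given in the sources used here, so reads in the shared bases cannot be assigned to either gene with certainty.

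Because ADAM10 and ADAM17 share many substrates, their ratio was also taken within each library. It was 2.94, 3.57 and 3.06 in Vector and 5.25, 4.59 and 4.26 in OE-MMP28 libraries, without overlap. The ratio of ADAM15 to ADAM17 was 3.47, 4.69 and 3.72 against 5.66, 7.48 and 8.51, again without overlap. Both ratios were chosen after the values had been seen and were not tested. They have ADAM17 as their common denominator, so they are not independent of each other or of the bases that ADAM17 shares with IAH1. How often ratios of other gene pairs separate the groups was not counted.

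ADAM19, a sheddase of neuregulins, had 9.99, 6.56 and 8.31 FPKM in Vector and 9.50, 10.9 and 9.72 FPKM in OE-MMP28 libraries. Vector replicate 1 lay inside the OE-MMP28 range and the other Vector libraries below it. The means were 8.29 ± 1.72 and 10.04 ± 0.753 FPKM (SD, n = 3), or a log2 fold change of 0.29 (95% interval -0.06 to 0.63, edgeR adjusted p = 0.223). ADAM8, best known from leukocytes and described in pancreatic tumours, had 4.13, 7.43 and 5.17 FPKM in Vector and 3.85, 6.29 and 5.94 FPKM in OE-MMP28 libraries. In each group replicate 1 was the lowest and replicate 2 the highest value, and the ranges overlapped. The means were 5.58 ± 1.69 and 5.36 ± 1.32 FPKM (SD, n = 3), and the log2 fold change was -0.04 (95% interval -0.49 to 0.41, edgeR adjusted p = 0.920).

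ADAM28, a lymphocyte ADAM that carcinoma cells can also make, was the member with the largest change. The gene (ENSG00000042980) lies at chr8:24294040-24359018 on the plus strand. It had 72, 160 and 107 counts in Vector and 4, 10 and 18 counts in OE-MMP28 libraries, which corresponds to 0.504, 1.27 and 0.776 against 0.0270, 0.0675 and 0.114 FPKM. Every OE-MMP28 library was below every Vector library, and no other member had groups so far apart. The mean fell from 0.849 ± 0.386 to 0.0696 ± 0.0437 FPKM (SD, n = 3), or a log2 fold change of -3.56 ± 0.42 SE (95% interval -4.43 to -2.69, edgeR adjusted p = 5.57e-06). Only 0.287% of all genes tested had a larger absolute log2 fold change. The call held without each library in turn, with log2 fold changes from -4.13 to -3.16. It ended only with limma on log2(FPKM + 1) over all genes without a filter (log2 fold change -0.77, adjusted p = 0.201). Even in the Vector cells ADAM28 was the lowest of the 7 tested members, at 0.530% to 1.60% of the summed FPKM of the 10 genes.

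The secreted and inhibitory members were near or at 0. ADAMTS1 and ADAMTS9, proteases of versican and other proteoglycans, had 0, 0 and 0 against 3, 0 and 1 counts and 0, 1 and 0 against 0, 0 and 0 counts, in Vector and OE-MMP28 libraries respectively. RECK had 0 counts in all 6 libraries. A count of 0 allows up to 3 counts, which is 0.180 to 0.220 CPM (a count scaled to the total) in these libraries, and all 3 genes were at or under that limit, so no fold change is given. This limit, like the counting intervals below, covers counting error alone and not the spread between replicates, which went beyond counting noise. Reads were not tied to single molecules by identifiers either.

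The order of the levels per gene length was the same by group mean, ADAM9 first, then ADAM15, ADAM10, ADAM19, ADAM8, ADAM17 and ADAM28. It depends on the gene length used, which was 16168 bases for ADAM10 and 6584 for ADAM15. In counts ADAM10 was above ADAM15 in every library (2070 to 3578 against 1105 to 2059). Neighbours in this order overlapped in Vector for ADAM10 and ADAM19 and for ADAM19 and ADAM8. In OE-MMP28, ADAM10 and ADAM19 alone overlapped. The other neighbours had separate ranges over the 3 libraries of a group. The summed FPKM of the 10 genes was 79.2 to 95.1 in Vector and 78.9 to 104.5 in OE-MMP28 libraries, so the groups overlapped in the total.

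Of the features that the choice of genes did not use, the promoter (250 bases before to 50 after the start, RefSeq on GRCh38.p14) was found for 6 of the 10 genes: ADAM8, ADAM10, ADAM15, ADAM17, ADAM19 and RECK. Motifs were searched on both strands, and no motif contains another. For the GC box, GGGCGG, ADAM15 had 6 matches and 44 CpG pairs, more pairs than 95.8% of all promoters. ADAM17, ADAM8 and RECK had 3 GC boxes each, ADAM10 had 1 and ADAM19 had 0. A GC box was present in 45% of all 35116 promoters, and the median promoter held 14 CpG pairs, against 22 to 44 in the 6 members. None of the 6 held the TATA box letters TATAAA, which were present in 11.5% of all promoters. The AP-1 letters TGANTCA were likewise in none of the 6 and in 7.71% of all promoters. ADAM8 alone held CCAAT, beside 34.6% of all promoters.

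Since neighbouring genes can change together, each tested member was set beside the genes tested within 5 Mb of its start. ADAM15 stood above the median log2 fold change of its 178 neighbours, which was 0.09. With each gene's local median taken as an offset its log2 fold change was 0.40 and the adjusted p was 0.0778. ADAM28 stood far below the median of its 67 neighbours (-0.36), and its log2 fold change with the offset was -3.20. For ADAM17 the 35 neighbours had a median of -0.40, nearly its own value, and with the offset its log2 fold change was 0.01 (adjusted p = 0.972). ADAM9 lay in a region where the 46 neighbours had a median of -0.33, above which its own value of 0.03 stood. With the offset ADAM9 was at 0.37 (edgeR adjusted p = 0.166). The 25 neighbours of ADAM8 had a median of -0.39, and the offset took ADAM8 from -0.04 to 0.35 (edgeR adjusted p = 0.310). ADAM10 and ADAM19 had local medians of -0.02 and 0.11. Their log2 fold changes with the offset were 0.22 and 0.18 (edgeR adjusted p = 0.382 and 0.508).

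**Figure D2:**
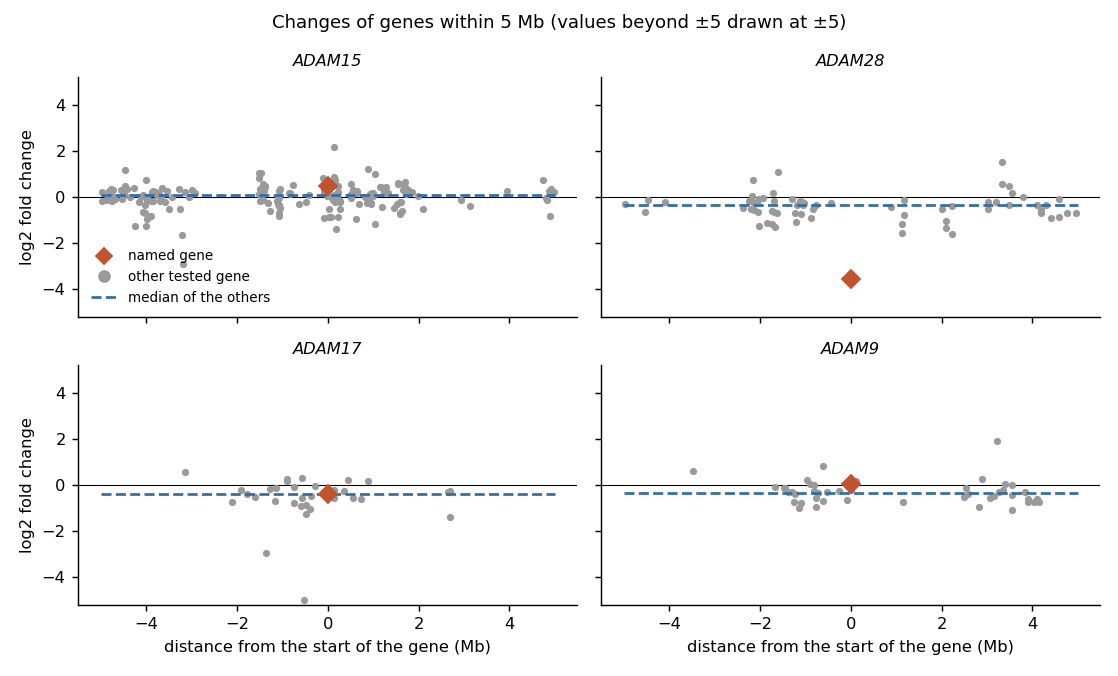
Log2 fold change (OE-MMP28 over Vector) of the genes tested within 5 Mb, against the distance between gene starts in Mb, for ADAM15, ADAM28, ADAM17 and ADAM9. The orange diamond is the named gene, grey points are the other genes and the dashed line is their median, which is 0.09, -0.36, -0.40 and -0.33 in that order, so that ADAM17 sits on its line and ADAM28 far below.

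**Figure D3:**
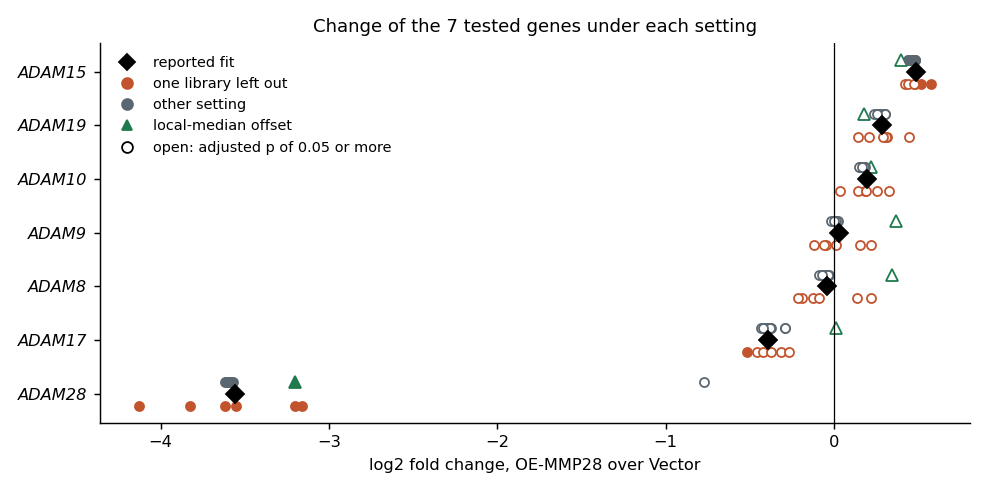
Log2 fold change (OE-MMP28 over Vector) of the 7 tested members in the reported fit (black diamonds), with 1 library left out (orange), with the local-median offset (green) and in the other settings (grey). Open symbols mark an adjusted p of 0.05 or more, ADAM28 lies between -4.13 and -3.16 in the orange points and at -0.77 with limma on unfiltered FPKM, and ADAM17 moves to 0.01 with the offset.

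The rest of the family was measured with the same test. Of the other 36 ADAM, ADAMTS and ADAMTSL genes, 12 were tested, 2 were higher and 3 lower in OE-MMP28 cells, with a median log2 fold change of 0.22, and 13 had 0 counts in all libraries. The 5 calls are 41.7% of those tested, beside 23.4% of all genes tested, and 6 of the 12 had groups that did not overlap, beside 38.1%. The 2 that rose were both secreted proteases. ADAMTS14, which trims the amino end of procollagens, had 5, 13 and 16 counts in Vector and 53, 82 and 81 counts in OE-MMP28 libraries (log2 fold change 2.50 ± 0.39 SE, edgeR adjusted p = 0.00012). ADAMTS17, linked to microfibrils, had 42, 28 and 28 against 128, 135 and 142 counts (log2 fold change 1.90 ± 0.25 SE, edgeR adjusted p = 2.52e-05), and 5.23% of its exon bases are shared with a gene on the opposite strand. For both, every OE-MMP28 library was above every Vector library.

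The 3 that fell were ADAMTS7, ADAM22 and ADAMTSL5. ADAMTS7, a protease of cartilage oligomeric matrix protein, had 31, 24 and 28 counts in Vector and 2 counts in each OE-MMP28 library, a ratio of scaled totals of 15.3 (exact counting interval 6.73 to 42.9, edgeR adjusted p = 2.94e-05). Its pseudogene ADAMTS7P4 had 10, 8 and 13 against 4, 4 and 4 counts and ADAMTS7P3 had 0, 3 and 0 against 0, 8 and 6, and as the treatment of reads that match several places was not given, the split between the copies is uncertain. ADAM22, which lacks a catalytic centre and serves as a receptor of the secreted protein LGI1, had 74, 105 and 108 against 45, 46 and 27 counts (log2 fold change -1.43 ± 0.29 SE, edgeR adjusted p = 0.00159). ADAMTSL5, a secreted relative without a protease domain, had 4.82, 5.43 and 4.92 against 2.53, 3.29 and 4.30 FPKM (log2 fold change -0.57 ± 0.20 SE, edgeR adjusted p = 0.0477). All 3 had groups that did not overlap. The call of ADAMTSL5 was lost without OE-MMP28 replicate 1 (adjusted p = 0.139) or 2 (0.143) and without Vector replicate 2 (0.0986) or 3 (0.0958). Members and relatives together, 14 of the 31 genes with the catalytic run were tested. Of these 3 were higher and 2 lower (35.7%, beside 23.4% of all genes tested). Of the 14 genes without the run, 5 were tested, 0 were higher and 2 lower (40%, beside the same 23.4%). These numbers are small, and a difference by catalytic run was not tested.

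**Figure D4:**
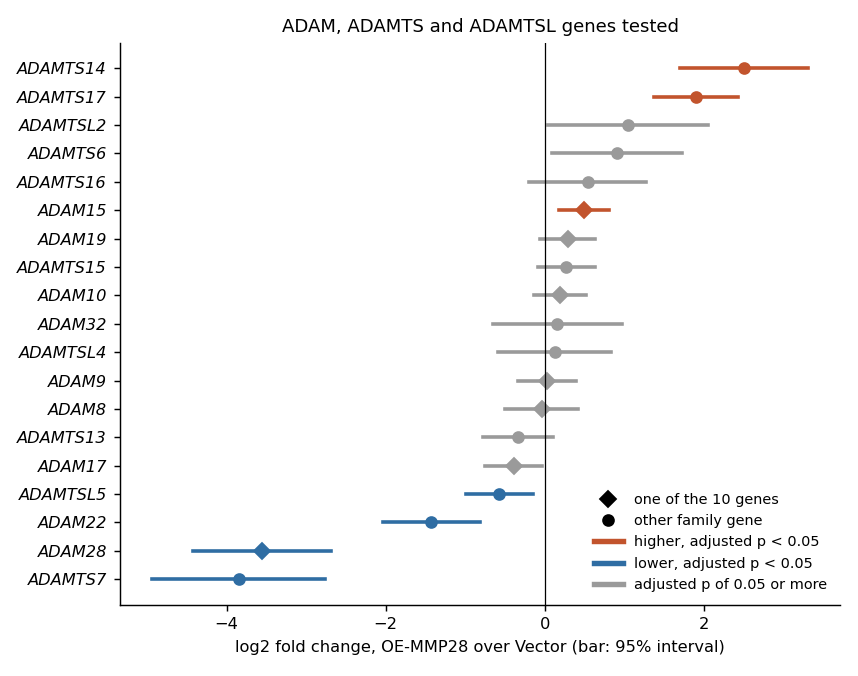
Log2 fold change (OE-MMP28 over Vector) with its 95% interval for the 19 ADAM, ADAMTS and ADAMTSL genes that were tested. Diamonds are among the 10 chosen genes, circles are other family genes, orange and blue mark an adjusted p under 0.05, and the values run from ADAMTS7 and ADAM28 (-3.56) at the low end to ADAMTS17 (1.90) and ADAMTS14 (2.50) at the high end.

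A sheddase becomes active only after its prodomain is removed and it is carried to the cell surface. Of 13 genes for these steps, 12 were tested, 3 rose and 2 fell (41.7%, beside 23.4% of all genes tested), with a median log2 fold change of 0.19. The groups did not overlap in 7 of the 12, beside 38.1% of all genes tested. The proprotein convertases that remove prodomains moved as follows. PCSK5 rose from 6.13, 6.53 and 5.44 to 9.59, 8.50 and 7.46 FPKM (log2 fold change 0.51, edgeR adjusted p = 0.0194). PCSK6 rose from 3.14, 3.03 and 2.60 to 3.93, 3.95 and 3.97 FPKM (0.44, edgeR adjusted p = 0.0419), a call that 3 of 18 other settings kept and that leaving out any library but Vector replicate 1 ended (adjusted p 0.0525 to 0.228). The call of PCSK5 was lost without OE-MMP28 replicate 1 (adjusted p = 0.0659) or 2 (0.0921) and without Vector replicate 3 (0.131). The local-median offset lowered its log2 fold change to 0.31 (adjusted p = 0.171). FURIN, the convertase most used by ADAMs, had a log2 fold change of 0.22 (8.88 ± 0.656 against 10.2 ± 1.88 FPKM, SD, n = 3, edgeR adjusted p = 0.371). PCSK7 had 3.56 ± 0.227 against 4.13 ± 0.244 FPKM (SD, n = 3, log2 fold change 0.22, edgeR adjusted p = 0.281), without overlap of the groups.

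The tetraspanins of the TspanC8 group escort ADAM10 out of the endoplasmic reticulum, and different ones direct it to different substrates. TSPAN5 had 2, 3 and 3 counts in Vector and 30, 32 and 22 counts in OE-MMP28 libraries, a ratio of scaled totals of 9.50 (exact counting interval 4.61 to 22.7, edgeR adjusted p = 0.000198). TSPAN14 fell from 3.53, 5.00 and 3.48 to 2.39, 2.88 and 2.57 FPKM (log2 fold change -0.60, edgeR adjusted p = 0.0140), and with the local-median offset its log2 fold change was -0.22. TSPAN33 fell from 1.66, 2.26 and 1.95 to 0.713, 1.06 and 1.17 FPKM (-0.98, edgeR adjusted p = 0.0156). The adjusted p of TSPAN14 was 0.0900 without Vector replicate 2, and that of TSPAN33 was 0.0559 without OE-MMP28 replicate 1. For all 3 the groups did not overlap, but TSPAN5 remained the least abundant of them, at 0.234 ± 0.0512 FPKM (SD, n = 3) in OE-MMP28 cells. TSPAN15, the most abundant of the group, had 27.8 ± 1.73 against 25.0 ± 3.08 FPKM (log2 fold change -0.14, edgeR adjusted p = 0.548), and TSPAN17 had 11.6 ± 1.32 against 12.9 ± 1.63 FPKM (0.17, adjusted p = 0.490).

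The iRhom proteins carry ADAM17 to the surface. RHBDF1, which encodes the first of them, had 16.6 ± 5.98 against 11.3 ± 2.41 FPKM (SD, n = 3), or a log2 fold change of -0.54 (edgeR adjusted p = 0.0667). RHBDF2 had 3.44 ± 0.469 against 2.60 ± 0.484 FPKM (-0.39, edgeR adjusted p = 0.140), and FRMD8, their stabilising partner, 39.4 ± 3.98 against 46.9 ± 7.25 FPKM (0.26, adjusted p = 0.236). None of the 3 passed the test, as was the case for ADAM17. RHBDF1 was called lower in 6 of 18 other settings, among them without OE-MMP28 replicate 3 (adjusted p = 0.0493), without Vector replicate 1 (0.0127) or without Vector replicate 3 (0.0463).

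Besides RECK, metalloproteinases are held in check by the tissue inhibitors TIMP1 to TIMP4. Of these 3 were tested and 1 rose (33.3%, beside 23.4% of all genes tested). TIMP1, which inhibits ADAM10 but not ADAM17, rose from 58.8, 69.2 and 66.8 to 94.5, 86.9 and 115 FPKM (log2 fold change 0.62 ± 0.15 SE, edgeR adjusted p = 0.00659), and the groups did not overlap. TIMP2 had 95.7 ± 17.1 against 106 ± 10.2 FPKM (SD, n = 3, log2 fold change 0.15, adjusted p = 0.506), above the range of TIMP1 in Vector and overlapping it in OE-MMP28 libraries, and TIMP4 had a log2 fold change of 0.29 (adjusted p = 0.419). TIMP3, the inhibitor of ADAM17 and of ADAMTS enzymes, had at most 2 counts, so that RECK and TIMP3 were both at or under the limit of 3 counts in every library.

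Of 30 membrane proteins known as substrates of shedding, 22 were tested, 4 rose and 3 fell (31.8%, beside 23.4% of all genes tested), with a median log2 fold change of 0.07. The groups did not overlap in 11 of the 22, beside 38.1% of all genes tested. CD44, the hyaluronan receptor, rose from 28.98, 25.2 and 25.2 to 49.4, 43.3 and 42.7 FPKM (log2 fold change 0.78, edgeR adjusted p = 0.000585). TNFRSF1B, a TNF receptor, rose from 12.8, 7.70 and 8.67 to 18.1, 19.0 and 21.5 FPKM (1.02, edgeR adjusted p = 0.000522). MET, the receptor of hepatocyte growth factor, rose from 136, 117 and 138 to 204, 198 and 138 FPKM (0.47, edgeR adjusted p = 0.0338), with OE-MMP28 replicate 3 just above the Vector range. BTC, a ligand of the EGF receptor that ADAM10 releases, rose from 21, 14 and 8 to 33, 50 and 27 counts (1.21, edgeR adjusted p = 0.0374). The calls of MET and BTC were kept in 9 and 10 of 18 other settings. Both were lost without OE-MMP28 replicate 1 or 2 and without Vector replicate 2 or 3, with adjusted p-values of 0.0657 to 0.170 for MET and 0.0543 to 0.225 for BTC.

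The substrates that fell were CDH1, SDC1 and MICA. CDH1, which encodes E-cadherin, fell from 22.01, 21.6 and 17.3 to 14.5, 14.8 and 10.9 FPKM (log2 fold change -0.59, edgeR adjusted p = 0.0113). SDC1, which encodes the proteoglycan syndecan-1, fell from 79.4, 75.6 and 68.2 to 45.6, 56.4 and 54.3 FPKM (-0.50, edgeR adjusted p = 0.0182), but its neighbours within 5 Mb had a median of -0.54, and with the local-median offset its log2 fold change was 0.04. MICA, a ligand of the NKG2D receptor on lymphocytes, fell from 16.5, 16.8 and 19.1 to 12.2, 11.9 and 13.8 FPKM (-0.46, edgeR adjusted p = 0.0430), in 10 of 18 other settings too. Its adjusted p was 0.0555 to 0.212 without OE-MMP28 replicate 1 or 2 or Vector replicate 2 or 3. For CDH1 it was 0.0609 without OE-MMP28 replicate 3, and the change was -0.21 (log2, adjusted p = 0.421) once the local-median offset was applied. For these 3 genes every OE-MMP28 library was below every Vector library.

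The other EGF receptor ligands that were tested did not pass. EGF (0, 0 and 0 counts in Vector against 6, 0 and 2 in OE-MMP28 libraries) and EPGN (at most 2 counts) were too low to be tested. HBEGF had 6.34 ± 0.498 against 8.59 ± 1.52 FPKM (SD, n = 3, log2 fold change 0.45, edgeR adjusted p = 0.0739), AREG had a log2 fold change of 0.31 (adjusted p = 0.277), EREG of 0.19 (adjusted p = 0.571) and TGFA of -0.22 (adjusted p = 0.478). Without Vector replicate 1, AREG was called higher (0.65, adjusted p = 0.0125) and so was EREG (0.53, adjusted p = 0.0485). NOTCH1 had 4.02 ± 0.215 against 4.86 ± 1.04 FPKM (0.29, edgeR adjusted p = 0.237). TNF, the substrate that gave ADAM17 its other name, had at most 1 count in any library, while its receptors were expressed.

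The 6 genes of gamma-secretase, which cuts the stub that shedding leaves in the membrane, were all tested. Of them 0 passed, beside 23.4% of all genes tested. Their median log2 fold change was 0.21, and the largest difference was in APH1B, at 1.53 ± 0.477 against 0.903 ± 0.271 FPKM (SD, n = 3, log2 fold change -0.75, edgeR adjusted p = 0.0514). At an unadjusted p under 0.05, APH1B and APH1A (0.36, edgeR adjusted p = 0.0978) passed. With the tests, scalings and left-out libraries tried besides edgeR, APH1B passed in 8 of 18 settings, DESeq2 (adjusted p = 0.0418) and the fit without Vector replicate 1 (0.00966) among them, and APH1A in 1, without OE-MMP28 replicate 1 (0.0326).

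Among 7 matrix proteins that ADAMTS enzymes cut, 4 were tested, NID1 rose and THBS1 fell (50%, beside 23.4% of all genes tested). NID1, the basement membrane protein nidogen-1, rose from 4.92, 3.89 and 3.43 to 6.75, 7.07 and 5.76 FPKM (log2 fold change 0.69, edgeR adjusted p = 0.00701). This call was lost when OE-MMP28 replicate 2 (adjusted p = 0.0586) or Vector replicate 3 (0.0624) was left out. THBS1, which encodes thrombospondin-1, fell from 13.1, 13.0 and 12.7 to 8.24, 8.09 and 6.68 FPKM (-0.74, edgeR adjusted p = 0.0012). VCAN, which encodes versican, the main substrate of ADAMTS1 and ADAMTS9, was abundant at 136 ± 13.4 against 127 ± 23.5 FPKM (SD, n = 3) and had a log2 fold change of -0.09 (edgeR adjusted p = 0.730). Of the 6 targets and partners of RECK, 2 were tested with edgeR and 0 passed, beside 23.4% of all genes tested. In the reported fit 0 passed at an unadjusted p under 0.05 as well. MMP14, a membrane metalloproteinase that RECK restrains, had 13.4, 16.8 and 12.4 against 10.7, 17.3 and 14.5 FPKM (0.01, 95% interval -0.37 to 0.39, edgeR adjusted p = 0.984). Its neighbours within 5 Mb had a median of 0.61, and once the local-median offset was applied MMP14 was called lower, at -0.60 on the log2 scale (adjusted p = 0.0297). WNT7B, the ligand of the RECK receptor complex, had 17.9 ± 1.73 against 16.8 ± 1.71 FPKM (SD, n = 3, log2 fold change -0.08, adjusted p = 0.763), while MMP2 had 0 counts in all libraries and MMP9 at most 2. Over the 6 lists together, 49 of 66 genes were tested, of which 9 were higher and 6 lower (30.6%, beside 23.4% of all genes tested), with a median log2 fold change of 0.16.

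**Figure D5:**
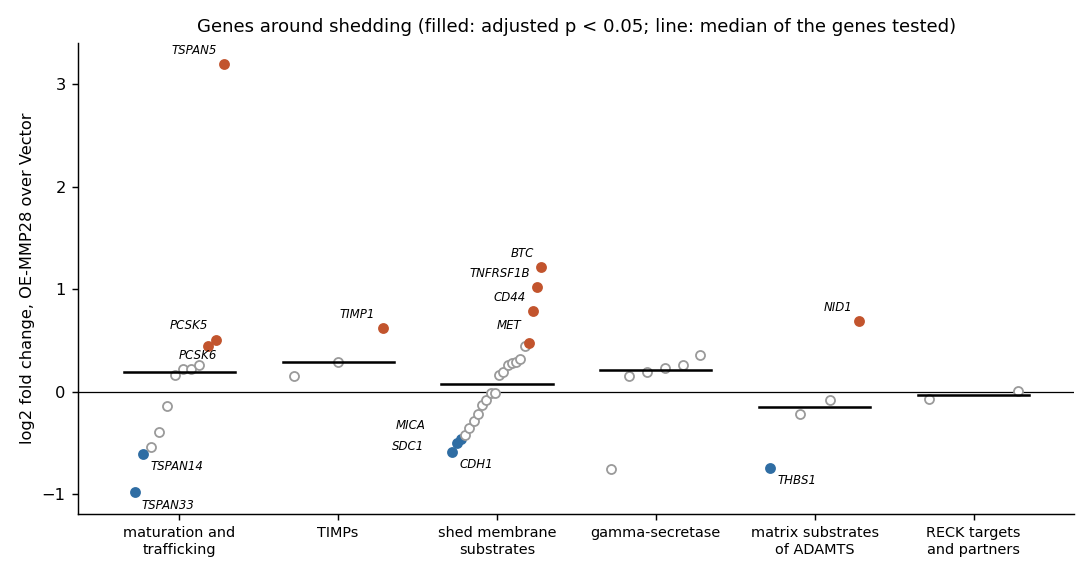
Log2 fold change (OE-MMP28 over Vector) of the 49 tested genes in 6 lists around shedding, each point a gene and each line the median of its list. Filled orange points are the 9 genes that were higher and filled blue points the 6 that were lower at an adjusted p under 0.05, and the medians lie between -0.15 for the matrix substrates and 0.29 for the TIMPs.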

How the data were processed

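RNA of 3 Vector and 3 OE-MMP28 samples had been made into libraries with the NEBNext Ultra RNA kit. The authors deposited whole-number read counts per gene, neither normalised nor pooled, and FPKM values. The submitters' processing notes name HISAT2 2.0.5 and featureCounts 1.5.0-p3. The strand setting, the treatment of reads matching several places and the build were not given in the sources used here. All 58735 gene identifiers were in GENCODE 29 (GRCh38), 58690 with the same coordinates and strand. The totals implied by the deposited FPKM differed from the summed counts by -2.01% to 2.02%. The authors' deposited group means, log2 fold changes and p-values were not used. The number of sample columns left unmapped was 0.

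Counts were tested with edgeR 4.0.16 (R 4.3.3): filterByExpr (minimum count 10, minimum total 15), TMM, the group as the only term, quasi-likelihood test, two-sided, Benjamini-Hochberg adjustment over 15319 genes. The study's methods name limma, and edgeR was used as counts were present. The standard error is the log2 fold change divided by the square root of F. FPKM values describe levels. Replicates of a group differed beyond counting noise (chi-square per degree of freedom of at least 13.9). The members and lists were chosen with earlier results of these data known. Members, MMP28 and list genes with an adjusted p under 0.05 were named, and others with their values where a list needed it.

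The 18 alternatives were leaving out each library, the replicate block, upper-quartile scaling, DESeq2 1.42.0 and its size factors, no filter, at least 1 CPM in 3 libraries, limma 3.58.1 voom, limma on log2(FPKM + 1) with and without a minimum mean of 0.5 FPKM and on log2(FPKM + 0.1), counts without mitochondrial genes, and the local-median offset (window of 5 Mb on each side, at least 10 neighbours). The study's threshold was counted as well.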

Additional observations from a re-analysis of the deposited data

How the results depend on the processing

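Of the 10 genes, 2 were called, and this count was 0 with limma on log2(FPKM + 1), 0 on log2(FPKM + 0.1) and 0 without a filter, 1 with the local-median offset, 1 at the study's threshold, and 1 to 3 when each library was left out. ADAM28 was below the FPKM minimum and not tested in the first 2 of these fits, and without a filter its log2 fold change was -0.77 (adjusted p = 0.201). ADAM15 was called in 11 of 18 alternatives (adjusted p 0.00937 to 0.187). Over all genes, 3579 calls became 1974, 1970 and 172 in the 3 limma fits on FPKM, 2377 with the local-median offset and 2029 to 3865 without each library, with the low end without OE-MMP28 replicate 2 and 2367 without Vector replicate 3. The other family genes had 5 calls, which were 1, 1 and 0 in the 3 FPKM fits and 4 to 5 without each library. The lists had 15 calls, which were 8, 7 and 0 in those fits and 9 to 19 without each library, with 9 without OE-MMP28 replicate 2. MMP28 had a log2 fold change of 0.84 (adjusted p = 0.246) without a filter on FPKM. The cause of these shifts was not tested.

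Most values that changed direction were close to 0 or close to the local median. The local-median offset moved log2 fold changes to 0.35 for ADAM8, 0.012 for ADAM17, 0.040 for SDC1, 0.31 for TSPAN15, 0.27 for TGFA and -0.60 for MMP14, and upper-quartile scaling moved ADAM9 to -0.017. MMP14, at 0.01, also turned with DESeq2 size factors (-0.013), DESeq2 (-0.014), the CPM filter (-0.018), limma on log2(FPKM + 0.1) (-0.023) and on log2(FPKM + 1) with and without a filter (-0.021), voom (-0.012), no filter (-0.0020), the replicate block (-0.012), upper-quartile scaling (-0.043) and no mitochondrial genes (-0.022). Without each library, values ran from -0.22 to 0.22 for ADAM8, -0.12 to 0.22 for ADAM9, -0.38 to 0.11 for TGFA, -0.21 to 0.053 for VCAN, -0.18 to 0.16 for MMP14 and -0.14 to 0.0016 for WNT7B. Over the single genes named and their alternatives, 665 values kept direction and side of the threshold, 87 lost the call, 18 gained it and 30 turned.

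Same-numbered libraries of the groups did not deviate together (correlations of 0.0168, 0.00798 and -0.0876), so the numbers were not read as pairs. With the replicate block the members had 2 calls and all genes 3685, and MICA and PCSK6 lost theirs (adjusted p = 0.0550 and 0.0553) while RHBDF1 and APH1B gained one (0.0253 and 0.0251). Depth limits ADAMTS1, ADAMTS9, RECK and TIMP3, for which no difference could be detected at these totals.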

Other observations

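Near ADAM15, at a distance of 0.142 Mb between gene starts, lies MUC1, a mucin of ductal epithelium and itself a protein that ADAM17 sheds. Other tested genes start between them and moved either way, among them EFNA1 (log2 fold change -0.88) and TRIM46 (0.87). MUC1 was picked out here after its value had been seen. It had 13.0, 19.7 and 13.6 FPKM in Vector and 63.1, 71.8 and 69.2 FPKM in OE-MMP28 libraries, a log2 fold change of 2.16 ± 0.17 SE (edgeR adjusted p = 3.61e-08), beside 0.49 for ADAM15.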
